A study of Mus musculus with 8 samples.

Results

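The 38 genes described here encode proteins that make ribosomes in the nucleolus. They were chosen by name for their function: 3 proteins of the box C/D small nucleolar ribonucleoproteins (snoRNPs), 3 of the box H/ACA snoRNPs, 6 further nucleolar factors, 2 subunits of RNA polymerase I, 12 factors of the small ribosomal subunit and 12 of the large one. All 38 had values in all 8 libraries and a mean of at least 1, out of 13959 genes that passed this filter and 48321 listed. None was lost to the filter on low values.

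Ribosomal RNA is transcribed by RNA polymerase I in the nucleolus as one long precursor. Box C/D snoRNPs guide the methylation of its riboses and box H/ACA snoRNPs the conversion of uridines to pseudouridines, while a large complex called the small subunit processome folds and cuts it. Separate sets of factors then carry the precursors of the small and the large subunit towards the cytoplasm. Genes of this machinery are known targets of the transcription factor MYC, which binds the E-box CACGTG, and GSK3 is known to phosphorylate MYC and mark it for destruction. Embryonic stem cells divide fast and are known for a high output of ribosomes.

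RNA was sequenced from E14 mouse embryonic stem cells of strain 129/Ola in 8 libraries, 2 in each of 4 groups. In the GSK3β line, the endogenous GSK3β gene was knocked out and the kinase came from a GSK3β transgene with the L132G change; its groups were given 5 µM 3MB-PP1 for 2 h or left untreated. In the GSK3α line, GSK3α was knocked out and replaced by a transgene with the L195G change, with the same pair of groups. Such changes make a kinase sensitive to bulky inhibitors like 3MB-PP1, so that 1 paralog at a time can be inhibited, and all cells were kept in serum-free N2B27 medium for 6 h. Each paralog is represented by 1 line, the labels give no vehicle for untreated cells, no promoter for the transgenes and no cells without a mutant kinase, and they do not say whether replicates were separate cultures. The p-values therefore measure the spread between these libraries, which may be technical. The test used draws this spread in part from other genes of similar level.

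The deposited values are estimated gene counts scaled so that the upper quartile is equal in all libraries, which held an estimated 21.5 to 32.4 M reads in genes. Gsk3b had values of 258 and 249 in the GSK3β line with 3MB-PP1 and 235 and 256 in that line untreated, against 52.7 and 55.3 in the GSK3α line with 3MB-PP1 and 58.2 and 54.7 in that line untreated. Gsk3a had 77.6 and 79.9 with 3MB-PP1 and 77.9 and 76.2 untreated in the GSK3β line, against 141 and 142 with 3MB-PP1 and 155 and 160.0 untreated in the GSK3α line. The table does not separate transgene from endogenous RNA, so these levels do not check the knockouts. All 10 stem cell markers looked up had values, with means over all libraries of 1412 for Pou5f1, 882 for Nanog and 352 for Sox2. Of the markers of other cell types, 8 of 10 for primitive endoderm, 8 of 9 for trophoblast, 7 of 10 neural and 4 of 8 fibroblast ones had values. A mean of at least 1 was reached by 5 primitive endoderm, 6 trophoblast, 6 neural and 3 fibroblast markers. Those with a mean below 1 included the primitive endoderm genes Gata6 and Sox17 and the trophoblast gene Cdx2. Behind each of the 38 genes stood at least 1018 estimated reads in every library, and the log2 difference between replicates varied over these genes with an SD of 0.032 to 0.047, depending on the group.

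To show what the promoters of these genes look like, 4 windows of 300 bases are printed, from 250 bases before to 50 after the RefSeq start on GRCm38.p6. They belong to the 2 genes with the largest rise with 3MB-PP1 in the GSK3β line, Rrp9 and Nop56, and to the 2 with the lowest change there, Grwd1 and Wdr43, a choice made after the values were seen. Capitals mark the E-box CACGTG, which reads the same on both strands and was the one motif searched.
Nop56 promoter, chr2:130274162-130274461, plus strand: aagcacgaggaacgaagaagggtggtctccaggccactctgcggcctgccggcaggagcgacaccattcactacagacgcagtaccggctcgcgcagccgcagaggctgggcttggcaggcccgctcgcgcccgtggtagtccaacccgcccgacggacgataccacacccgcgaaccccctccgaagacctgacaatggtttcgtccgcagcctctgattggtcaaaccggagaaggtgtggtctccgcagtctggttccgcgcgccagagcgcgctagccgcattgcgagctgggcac
Rrp9 promoter, chr9:106477059-106477358, plus strand: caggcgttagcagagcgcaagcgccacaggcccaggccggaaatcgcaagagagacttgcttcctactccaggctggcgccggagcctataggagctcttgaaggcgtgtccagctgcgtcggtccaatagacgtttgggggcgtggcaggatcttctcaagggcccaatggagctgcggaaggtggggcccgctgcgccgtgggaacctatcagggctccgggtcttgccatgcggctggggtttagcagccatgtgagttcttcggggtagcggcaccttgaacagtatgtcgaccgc
Grwd1 promoter, chr7:45830740-45831039, minus strand: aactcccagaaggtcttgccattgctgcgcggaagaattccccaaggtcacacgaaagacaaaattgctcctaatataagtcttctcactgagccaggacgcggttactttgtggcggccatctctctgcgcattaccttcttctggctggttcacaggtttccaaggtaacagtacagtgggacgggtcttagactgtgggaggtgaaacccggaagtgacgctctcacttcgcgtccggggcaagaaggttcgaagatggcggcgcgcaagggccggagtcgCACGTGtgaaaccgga
Wdr43 promoter, chr17:71615965-71616264, plus strand: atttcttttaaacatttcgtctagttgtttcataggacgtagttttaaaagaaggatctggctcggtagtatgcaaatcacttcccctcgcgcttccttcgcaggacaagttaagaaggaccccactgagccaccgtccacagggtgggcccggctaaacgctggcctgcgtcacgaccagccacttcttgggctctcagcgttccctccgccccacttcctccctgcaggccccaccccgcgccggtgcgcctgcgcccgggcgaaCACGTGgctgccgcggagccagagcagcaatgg

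A RefSeq window was at hand for 33 of the 38 genes and held a CACGTG in 8 of them, or 24.2%, compared with 11.8% of the 10126 tested genes that have a window. These 8 were Grwd1, Ltv1, Mybbp1a, Nop2, Pes1, Tsr1, Utp20 and Wdr43. In 7 of them the motif began after the start, from base 3 in Pes1 to base 41 in Mybbp1a, and in Nop2 it began 60 bases before. Of the 7 genes with a window that rose with 3MB-PP1 in the GSK3β line, 0 held the motif, and of the other 26 genes 8 did, or 30.8%. A match is a stretch of letters in this window and says nothing of binding.

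With 3MB-PP1, 8 of the 38 genes rose in the GSK3β line and 0 fell, by limma on log2(value + 1) with Benjamini-Hochberg adjustment over all tested genes and a threshold of 0.05. Over all tested genes, 7.49% rose and 7.44% fell. The 8 were Rrp9, Nop56, Nop14, Noc3l, Ddx21, Rrp12, Ncl and Dkc1, which act in small subunit processing, in both kinds of snoRNP, in the large subunit and as nucleolar factors. The rises were small, from 6.17% for Dkc1 to 11.1% for Rrp9, and none of the 38 genes changed by 1.5-fold or more. In bulk RNA of this kind, a change in the share of cells that express a gene and a change in the RNA per cell cannot be told apart. The log2 changes of the 38 genes lay between -0.01 and 0.15 with a median of 0.055, against -0.0057 for all tested genes, and 35 of the 38 were above 0. In 23 genes both libraries with 3MB-PP1 lay above both untreated libraries and in 0 below, while 27.3% of all tested genes lay above and 30.0% below.

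**Figure D1:**
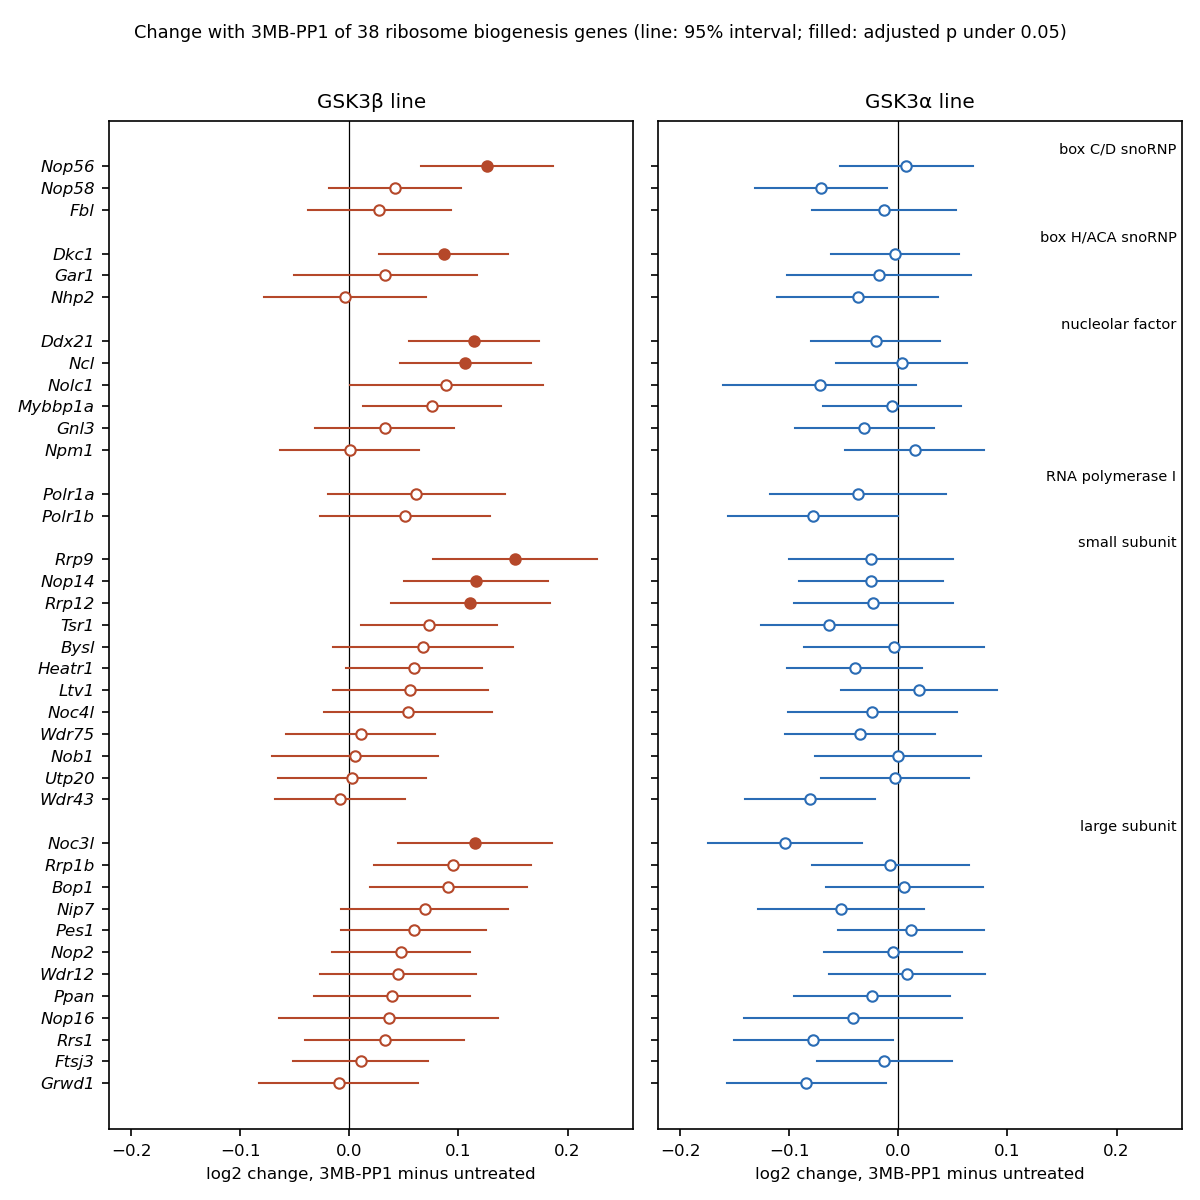
Log2 change with 3MB-PP1 (x axis, with 95% intervals of the limma fit) for each of the 38 genes (rows, grouped by role) in the GSK3β line and the GSK3α line, 2 libraries per group. In the GSK3β line 35 of the 38 points lie above 0 and 8 passed the test; in the GSK3α line 7 lie above 0 and none passed.

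Among the box C/D proteins, 1 of 3 rose. Nop56, a core protein that the guide RNAs assemble on, had values of 401 and 403 with 3MB-PP1 in the GSK3β line, against 375 and 362 untreated. Both treated libraries were the higher ones, and the log2 change was 0.13 ± 0.029 (SE, n = 2 libraries per group, limma adjusted p = 0.0054). Its partner Nop58 had 460.4 and 455 with 3MB-PP1 and 453 and 436 untreated. Fbl, the methyltransferase fibrillarin, had 304 and 308 with 3MB-PP1 and 308 and 292 untreated. The values of Fbl overlapped, those of Nop58 did not, and neither passed the test (limma adjusted p = 0.369 for Nop58 and 0.613 for Fbl).

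Of the box H/ACA proteins, 1 of 3 rose. Dkc1, the pseudouridine synthase dyskerin, had 335 and 333 with 3MB-PP1 in the GSK3β line and 314 and 315 untreated. The groups did not overlap, and the change of 0.09 ± 0.028 was the closest of the 8 to the threshold (limma adjusted p = 0.0447). It was lost in 11 of 17 alternative settings. Nhp2, another core protein, had 179.9 and 173 with 3MB-PP1 and 180.0 and 174 untreated, almost the same pair of values. Gar1, a further core protein, had 67.8 and 69.6 with 3MB-PP1 and 67.9 and 66.3 untreated, and its groups overlapped.

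The nucleolar factors included 2 of 6 that rose. Ncl, the abundant nucleolar protein nucleolin, had 2510.3 and 2523 with 3MB-PP1 in the GSK3β line, against 2350.3 and 2326 untreated. Its log2 change was 0.11 ± 0.029 (limma adjusted p = 0.0162). Ddx21, an RNA helicase that binds ribosomal RNA and snoRNAs, had 487 and 484 with 3MB-PP1 and 442 and 455 untreated. Its change was 0.11 ± 0.028 (limma adjusted p = 0.0092), and neither gene's groups overlapped. Npm1, the histone and ribosome chaperone nucleophosmin, had 3573 and 3586 with 3MB-PP1 and 3638 and 3521 untreated, so that the treated pair lay between the untreated pair. Its change of 0.00 had an interval from -0.06 to 0.06. Nolc1, a snoRNP chaperone, had 285 and 277 with 3MB-PP1 and 268 and 259.9 untreated, with groups that did not overlap and an adjusted p of 0.173 in limma. The stem cell factor Gnl3 (nucleostemin) and Mybbp1a had changes of 0.03 and 0.08 and did not pass.

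Neither RNA polymerase I subunit passed. Polr1a, the largest catalytic subunit, had 173 and 169 with 3MB-PP1 in the GSK3β line and 165 and 163 untreated. Polr1b, the second catalytic subunit, had 119.9 and 115 with 3MB-PP1 and 111 and 115 untreated. The Polr1a groups did not overlap and those of Polr1b did, and the adjusted p-values in limma were 0.317 for Polr1a and 0.397 for Polr1b.

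Among the small subunit factors, 3 of 12 rose. Rrp9, the processome protein that binds the U3 snoRNA, had 155 and 148 with 3MB-PP1 in the GSK3β line, against 134 and 139 untreated. Its change of 0.15 ± 0.036 was the highest of the 38 (limma adjusted p = 0.0068). Nop14, another processome protein, had 137 in both libraries with 3MB-PP1 and 127 and 126 untreated, a change of 0.12 ± 0.031 (limma adjusted p = 0.0169). Rrp12, whose yeast counterpart acts in the export of ribosome precursors, had 83.5 and 81.2 with 3MB-PP1 and 76.5 and 75.9 untreated, a change of 0.11 ± 0.035 (limma adjusted p = 0.0370). In all 3 genes the treated libraries lay above the untreated ones, although the call for Rrp12 was lost in 9 of 17 alternative settings. The assembly factor Ltv1 and Nob1, the nuclease of the last cut, did not pass. Ltv1 had 106 and 105 with 3MB-PP1 and 102 and 101 untreated. Nob1 had 98.5 and 99.7 with 3MB-PP1 and 101 and 96.7 untreated. Wdr43 had 258 and 259.9 with 3MB-PP1 and 262 and 259.5 untreated, and Utp20 had 242 and 241 in both groups. The Ltv1 groups did not overlap and those of the other 3 did.

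Of the large subunit factors, 1 of 12 rose. Noc3l, whose yeast counterpart acts in the maturation of large subunit precursors, had 81.5 and 80.9 with 3MB-PP1 in the GSK3β line, against 74.2 and 75.6 untreated. Its change was 0.12 ± 0.034 (limma adjusted p = 0.0262). Pes1, of the Pes1, Bop1 and Wdr12 complex, had 243 and 234 with 3MB-PP1 and 225 and 233 untreated, and Grwd1, a histone and ribosomal protein chaperone, had 99.9 and 97.7 with 3MB-PP1 and 101 and 98.3 untreated. The Pes1 groups did not overlap and the Grwd1 groups did. The changes of the 11 large subunit factors that did not pass lay between -0.01 and 0.09.

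The count in the GSK3β line depended on single libraries. With all libraries, 13 of the 38 genes and 3977 of all 13959 tested genes had an unadjusted p under 0.05 in limma. In the settings below, passing genes were counted among the 38 genes only, not over all tested genes. Without GSK3β 3MB-PP1 replicate 1, 0 of the 38 genes passed in limma, with 9 at an unadjusted p under 0.05. Without GSK3β 3MB-PP1 replicate 2, and likewise without untreated GSK3β replicate 1, 2 genes passed, and 5 did when the 4 libraries of the line were fitted alone. A fit in limma without a trend of the spread on the mean gave 0, with 7 at an unadjusted p under 0.05. The changes of the 8 genes stayed above 0 in all of these, but this was fixed in advance. Both treated libraries of each gene lay above both untreated ones, so none of these settings could turn the sign.

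**Figure D2:**
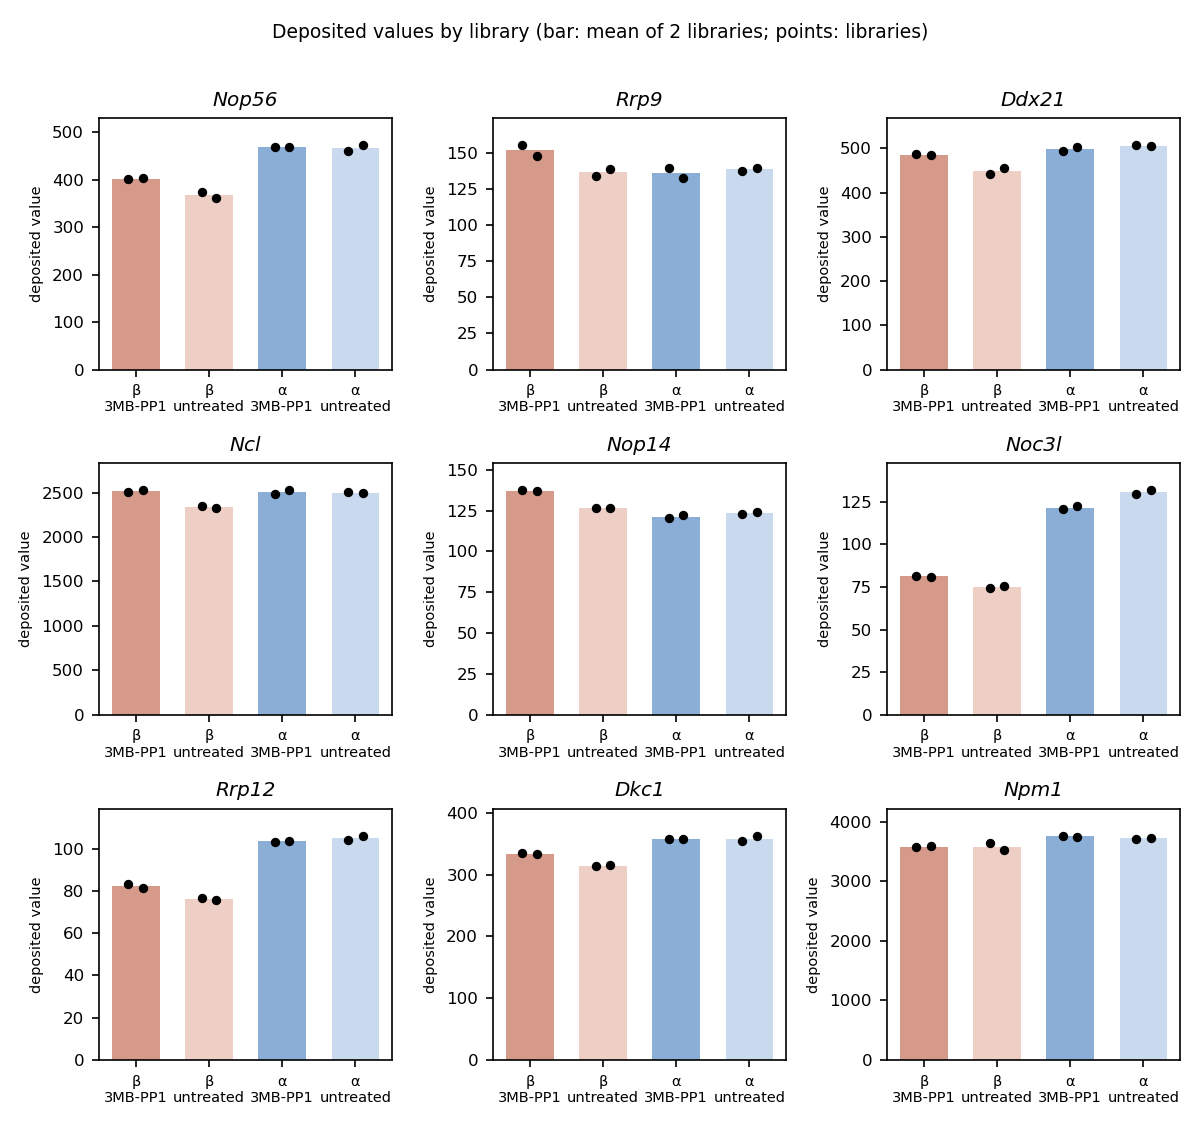
Deposited values (y axis, scaled estimated counts, from 0) of 9 of the genes in the 4 groups, 3MB-PP1 left of untreated within each line. Bars are means of 2 libraries and points are the libraries: Nop56 had 401 and 403 with 3MB-PP1 and 375 and 362 untreated in the GSK3β line, and 469 and 468 with 3MB-PP1 and 460.2 and 472 untreated in the GSK3α line.

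With 3MB-PP1 in the GSK3α line, 0 of the 38 genes passed in limma, and 6 had an unadjusted p under 0.05, all of them lower. Of all 13959 tested genes, 1648 had an unadjusted p under 0.05 there. Few genes of any kind passed there: 0.265% of all tested genes rose and 0.616% fell. The log2 changes of the 38 genes lay between -0.10 and 0.02 with a median of -0.023, against 0.0070 for all tested genes, and 7 of the 38 were above 0. The median was -0.039 without untreated GSK3α replicate 1, -0.0098 without untreated GSK3α replicate 2 and -0.016 without GSK3α 3MB-PP1 replicate 2. In 2 genes both libraries with 3MB-PP1 lay above both untreated libraries, as in 23.0% of all tested genes, and in 14 below, as in 19.0%. The count was also 0 in all 17 alternative settings.

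The 3 lowest changes were those of Noc3l, Grwd1 and Wdr43. Noc3l had 121 and 122 with 3MB-PP1 in the GSK3α line, against 129.8 and 132 untreated, a change of -0.10 ± 0.034 (limma adjusted p = 0.199). Grwd1 had 102 and 100.2 with 3MB-PP1 and 105 and 109 untreated. Wdr43 had 261 in both libraries with 3MB-PP1 and 274 and 279 untreated. In each of these the treated pair lay below the untreated pair, and none passed. The 3 highest changes were those of Ltv1, Npm1 and Pes1. Ltv1 had 96.5 and 95.2 with 3MB-PP1 and 93.5 and 95.8 untreated. Npm1 had 3764 and 3748 with 3MB-PP1 and 3716 and 3718 untreated. Pes1 had 234 and 233 with 3MB-PP1 and 228 and 235 untreated, so the groups overlapped in Ltv1 and Pes1 and not in Npm1.

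The other 7 genes that passed in the GSK3β line did not pass in the GSK3α line. Nop56 had 469 and 468 with 3MB-PP1 and 460.2 and 472 untreated there, and Rrp9 had 139.7 and 133 with 3MB-PP1 and 138 and 139.7 untreated. Nop14 had 120.5 and 122 with 3MB-PP1 and 123 and 124 untreated. Ncl had 2484 and 2523 with 3MB-PP1 and 2502 and 2494 untreated, Ddx21 had 493 and 504 with 3MB-PP1 and 507 and 505 untreated, and Dkc1 had 358 in both libraries with 3MB-PP1 and 354 and 363 untreated. Rrp12 had 103 and 104 with 3MB-PP1 and 104 and 106 untreated. The changes of these 7 lay between -0.02 and 0.01, with intervals that reached from -0.10 for Rrp9 to 0.07 for Nop56. Of the remaining box C/D proteins, Nop58 had 479 and 472 with 3MB-PP1 and 499.5 and 499 untreated, and Fbl had 258 and 253 with 3MB-PP1 and 258 in both untreated libraries. The Nop58 change of -0.07 had an adjusted p of 0.326 in limma. Polr1a had 147 in both libraries with 3MB-PP1 and 144 and 159 untreated, and Polr1b had 112 and 118 with 3MB-PP1 and 119 and 124 untreated. The untreated Polr1a libraries stood further apart than the treated ones, and Nolc1 was alike in this, with 401 and 405 with 3MB-PP1 and 398 and 452 untreated. Among genes named for another comparison, Nhp2 had 175 in both libraries with 3MB-PP1 in the GSK3α line and 174 and 185 untreated, and Gar1 had 60.5 and 59.8 with 3MB-PP1 and 59.3 and 62.5 untreated. Utp20 had 245 and 243 with 3MB-PP1 and 253 and 237 untreated, and Nob1 had 85.3 and 82.8 with 3MB-PP1 and 85.2 and 82.9 untreated. The groups overlapped in all 4.

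The difference between the lines was tested itself, as the change in the GSK3β line minus the change in the GSK3α line. It passed in 2 of the 38 genes, both higher, in limma, and over all tested genes it was higher in 3.62% and lower in 2.90%. An unadjusted p under 0.05 was found in 16 of the 38 genes and in 2928 of all 13959 tested genes. For Noc3l the changes were 0.12 in the GSK3β line and -0.10 in the GSK3α line, a difference of 0.22 ± 0.048 (limma adjusted p = 0.0088). For Rrp9 they were 0.15 in the GSK3β line and -0.02 in the GSK3α line, a difference of 0.18 ± 0.051 (limma adjusted p = 0.0435). The next highest difference, 0.16 for Nolc1, did not pass (limma adjusted p = 0.120). The differences of the 38 genes lay between -0.01 and 0.22 with a median of 0.080, against -0.014 for all tested genes, and 37 were above 0. The lowest were those of Npm1, Utp20 and Nob1, with intervals from -0.11 to 0.08 for Npm1, from -0.09 to 0.10 for Utp20 and from -0.10 to 0.11 for Nob1. For the other 6 genes that rose in the GSK3β line the difference lay between 0.09 and 0.14 and did not pass, so they are not shown to respond differently in the lines. Without GSK3β 3MB-PP1 replicate 1, and likewise without GSK3α 3MB-PP1 replicate 1, 0 genes passed, with 7 and 10 at an unadjusted p under 0.05, and the call for Rrp9 was lost in 10 of 16 alternative settings. The count fell to 1 without untreated GSK3β replicate 1, GSK3α 3MB-PP1 replicate 2 or untreated GSK3α replicate 2.

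Larger differences separated the untreated lines. In the untreated GSK3β line, 5 of the 38 genes were higher than in the untreated GSK3α line and 17 were lower, by the same limma test, while 22.3% of all tested genes were higher and 25.9% lower. The median over the 38 genes was -0.054, against -0.018 for all tested genes. When libraries were scaled to an equal sum in place of an equal upper quartile, 7 were higher and 12 lower, with a median of -0.0037. Because the lines differ in clone, transgene and knocked-out gene, these cannot be told apart as the source of a difference. This comparison and the one with 3MB-PP1 share the untreated GSK3β libraries, so the values of the genes that rose are only set side by side. Nop56 changed by 0.13 with 3MB-PP1 in the GSK3β line and differed by -0.34 between the untreated lines. The same pair of log2 values was 0.12 and -0.80 for Noc3l, 0.11 and -0.46 for Rrp12, 0.11 and -0.17 for Ddx21, 0.11 and -0.10 for Ncl and 0.09 and -0.19 for Dkc1. For Rrp9 and Nop14 the differences between the untreated lines, -0.02 and 0.04, did not pass. Of the 38 genes, 14 had no call in any of the 4 comparisons, which was not counted over all tested genes. Between the untreated lines alone, 16 of the 38 genes and 7236 of all 13959 tested genes had no call.

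The 3 genes with the lowest line difference were Noc3l, Nolc1 and Rrp12. Noc3l had 74.2 and 75.6 in the untreated GSK3β line, against 129.8 and 132 in the untreated GSK3α line, a log2 difference of -0.80 ± 0.034 (limma adjusted p = 1.1e-12). Nolc1 had 268 and 259.9 in the untreated GSK3β line and 398 and 452 in the untreated GSK3α line, a difference of -0.68 ± 0.042 (limma adjusted p = 2.0e-10). Rrp12 had 76.5 and 75.9 in the untreated GSK3β line and 104 and 106 in the untreated GSK3α line, a difference of -0.46 ± 0.035 (limma adjusted p = 3.6e-09). In all 3 genes the lines were far apart compared with the replicates.

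Other members of each role also differed between the lines. Nop56 had 375 and 362 in the untreated GSK3β line and 460.2 and 472 in the untreated GSK3α line, and Nop58 had 453 and 436 in the untreated GSK3β line and 499.5 and 499 in the untreated GSK3α line. Fbl, of the same particle, went the other way, with 308 and 292 in the untreated GSK3β line and 258 in both libraries of the untreated GSK3α line. The differences were -0.34 for Nop56, -0.17 for Nop58 and 0.22 for Fbl, each past the threshold in every alternative setting. Among the H/ACA proteins Dkc1 was lower, with 314 and 315 in the untreated GSK3β line and 354 and 363 in the untreated GSK3α line, while Gar1 was higher, with 67.9 and 66.3 in the untreated GSK3β line and 59.3 and 62.5 in the untreated GSK3α line. Nob1 had the highest difference of the 38, at 0.23 ± 0.036, with 101 and 96.7 in the untreated GSK3β line and 85.2 and 82.9 in the untreated GSK3α line. Polr1a was higher, at 0.12, and Polr1b lower, at -0.10, and both calls were lost in some settings, 4 of 17 for Polr1a and 6 of 17 for Polr1b. Of the calls between the untreated lines, 12 of the 17 lower and 2 of the 5 higher ones held in every alternative. Npm1 did not pass, with 3638 and 3521 in the untreated GSK3β line and 3716 and 3718 in the untreated GSK3α line.

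After the values were seen, the 3 genes with the lowest line difference were found to lie near each other on chromosome 19. In the GENCODE annotation of GRCm38, Noc3l spans chr19:38788128-38819237 on the minus strand, Rrp12 spans chr19:41862851-41896173 on the minus strand and Nolc1 spans chr19:46075863-46085530 on the plus strand. The 183 tested genes that start at or beyond 30 Mb on this chromosome had a median log2 difference between the untreated lines of -0.51, with quartiles of -0.66 and -0.36. Of these genes 152, or 83.1%, were lower in the untreated GSK3β line and 9 were higher. The 253 genes before 30 Mb had a median of -0.03, and the medians of the other autosomes lay between -0.075 and 0.049. Within the segment 12 of the 183 genes had a lower difference than Noc3l, 37 than Nolc1 and 108 than Rrp12, so all 3 genes lay inside the range of their neighbours. DNA was not measured in these libraries, and the part of the segment in the differences of these 3 genes was not tested. The median change of the segment with 3MB-PP1 was 0.00 in the GSK3β line and 0.02 in the GSK3α line. Without these 3 genes, 5 of the remaining 35 were higher and 14 lower, with a median of -0.051; of the 13079 tested genes off chromosome 19, 2955 were higher and 3276 lower, with a median of -0.016. Dkc1, the 1 member on the X chromosome, had -0.19 where the median of 500 tested X genes was 0.21.

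**Figure D3:**
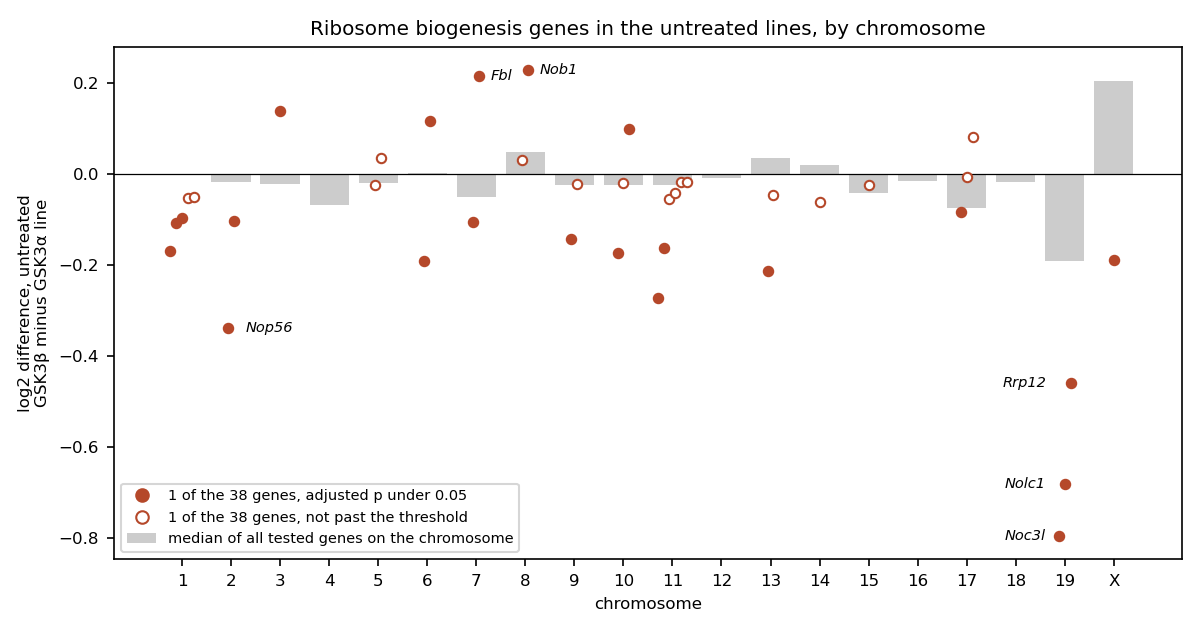
Log2 difference between the untreated GSK3β and the untreated GSK3α line (y axis) by chromosome (x axis). Grey bars are medians over the tested genes of a chromosome and points are the 38 genes, filled where the limma adjusted p is under 0.05. Noc3l, Nolc1 and Rrp12 on chromosome 19 lie at -0.80, -0.68 and -0.46, below the other 35.

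Summed over the 38 genes, the values made up 1.43% of the library total in both GSK3β libraries with 3MB-PP1, and 1.39% and 1.38% in the untreated ones. In the GSK3α line the share was 1.43% in both libraries with 3MB-PP1 and 1.44% in both untreated ones. The untreated GSK3β libraries were thus the lowest of the 8. Npm1 and Ncl weighed most in this share, with mean values of 3658 and 2464, where the 38 genes summed to 12795 to 13879 per library. Per kilobase of exon, the mean level over all libraries was highest for Npm1, at 1373 units per kb, followed by Ncl at 242 and Nhp2 at 154, and lowest for Polr1a at 13.3 and Wdr12 at 10.6. Npm1 has processed pseudogenes in the mouse, so its level is uncertain. For Tsr1, 32.3% of the exon bases overlap Srr on the opposite strand, and for Bysl 9.37% overlap Ccnd3; the strand setting of the counting is not given in the sources used here, so reads of these pairs cannot be told apart.

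A feature that the choice of genes did not use is that some hold snoRNA genes inside the gene. Of the 38 genes 8 do so, or 21.1%, compared with 1.73% of the 13515 tested genes with a unique GENCODE name: Nop56, Nop58, Dkc1, Ncl, Gnl3, Wdr43, Tsr1 and Ppan. With 3MB-PP1 in the GSK3β line, 3 of these 8 rose, and 5 of the 30 without a snoRNA gene. Between the untreated lines 7 of the 8 were lower in the GSK3β line and 0 higher, and of the other 30 genes 10 were lower and 5 higher. Among the 226 other tested genes that hold a snoRNA gene, 10.6% rose and 3.98% fell with 3MB-PP1 in the GSK3β line, and 17.7% were higher and 41.6% lower in the untreated GSK3β line. Among the 13251 other tested genes that hold none, 7.42% rose and 7.52% fell, and 22.4% were higher and 25.6% lower. These are counts without a test of the difference between the sets.

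Other genes of the ribosome pathway were counted in the same way with 3MB-PP1 in the GSK3β line. Of 40 tested other small subunit factors 5 rose and 0 fell, with changes of 0.23 for Dhx37, a helicase whose yeast counterpart takes part in dismantling the processome, 0.17 for Utp3 and 0.17 for Tbl3. Dhx37 had 50.9 and 45.0 with 3MB-PP1 and 40.0 and 41.6 untreated. Of 41 other large subunit factors 6 rose, among them Ddx27 at 0.14 and Noc2l at 0.13, and 1 fell, Rpf2 at -0.17. Of 14 other RNA polymerase I genes 1 rose, the cofactor Tcof1 (treacle) at 0.16, and 0 fell. Of 11 further snoRNP genes 1 fell, the H/ACA assembly factor Naf1 at -0.25. In the exosome, which trims the precursors, Exosc10 rose by 0.11 and Exosc5 fell by 0.21, out of 12. None of the 78 tested ribosomal protein genes passed in limma, and their median was -0.0020. An unadjusted p under 0.05 was found for 5 of the 78, against 3977 of all 13959 tested genes. Ribosomal protein genes have many pseudogenes, so their levels are uncertain.

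Of 12 tested genes known as hosts of snoRNAs 7 rose with 3MB-PP1 in the GSK3β line and 0 fell, with a median log2 change of 0.13. Snhg4 had 20.2 and 16.8 with 3MB-PP1 and 13.8 and 12.9 untreated, a change of 0.44. Snhg5 had 72.6 and 69.1 with 3MB-PP1 and 53.6 and 53.0 untreated, a change of 0.40, and Zfas1 rose by 0.32. In each the treated pair lay above the untreated pair. In the GSK3α line 0 of the 12 passed, 1 at an unadjusted p under 0.05, and the difference between the lines passed for Snhg4, at 0.47, and Snhg5, at 0.40. All 12 were lower in the untreated GSK3β line than in the untreated GSK3α line, with a median of -0.43; Gas5 differed by -0.79, Snhg4 by -0.74 and Zfas1 by -0.51.

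Myc fell in both lines, to 20.1 in both libraries with 3MB-PP1 in the GSK3β line, against 37.4 and 37.2 untreated, and to 26.3 and 28.1 with 3MB-PP1 in the GSK3α line, against 34.7 and 42.0 untreated. The log2 changes were -0.86 ± 0.068 in the GSK3β line (limma adjusted p = 4.8e-08) and -0.48 ± 0.068 in the GSK3α line (limma adjusted p = 0.0015), and their difference of -0.38 passed (limma adjusted p = 0.0208). Mycn, its relative in stem cells, had 126 and 129.9 with 3MB-PP1 and 130.4 and 129.9 untreated in the GSK3β line, and did not pass there. In the GSK3α line Mycn fell by 0.16, with 117 and 119.5 with 3MB-PP1 and 129.8 and 134 untreated. Of the 12 tested MYC network genes, 3 fell in the GSK3β line, Myc, Mxd4 at -0.61 and Mxd3 at -0.30, the last pair encoding MAX partners that oppose MYC, and 0 rose. The part of Myc in the changes of the 38 genes was not tested, and MYC protein was not measured.

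In the GSK3α line no small or large subunit factor, RNA polymerase I, snoRNP, exosome, snoRNA host or ribosomal protein gene of these companion sets passed with 3MB-PP1. The difference between the lines was higher for 4 other small subunit factors, among them Dhx37 at 0.31 and Utp3 at 0.20, for the RNA polymerase I genes Cd3eap at 0.22 and Tcof1 at 0.19, and lower for Exosc5 at -0.26. Between the untreated lines, 17 of the 40 other small subunit factors were lower in the GSK3β line and 3 higher, and 15 of the 41 other large subunit factors were lower and 5 higher. The lowest of them was Efl1, at -0.91, and Pdcd11, which is on chromosome 19 too, was at -0.82. Of the ribosomal protein genes 54 were lower, among them Rps25 at -0.53, and 2 were higher, Rps4x at 0.76 and Rpl36a at 0.17. The companion sets were counted only at the deposited scaling, and the counts of the 38 genes between the untreated lines moved with the scaling. RNA that is prone to collect ribosomal RNA reads moved as well: Gm42418, Gm26917 and Lars2 fell with 3MB-PP1 in the GSK3α line, by 0.34, 0.28 and 0.34, and did not pass in the GSK3β line. The difference between the lines passed for all 3, from 0.34 for Gm42418 to 0.46 for Lars2, and all 3 were lower in the untreated GSK3β line, at -0.39 for Gm42418, -0.15 for Gm26917 and -0.20 for Lars2, the same directions as the medians of the 38 genes in these comparisons. Lars2 had 2079 and 1918 with 3MB-PP1 and 1695 and 1978 untreated in the GSK3β line, and 1689 and 1637 with 3MB-PP1 and 2307 and 1917 untreated in the GSK3α line. Their part in the changes of the 38 genes was not tested. Some cell type markers moved with 3MB-PP1 in the GSK3β line as well. Of 10 stem cell markers 3 rose and 3 fell, and their summed value was 6491 to 6661 with 3MB-PP1 and 6536 to 6586 untreated. Of 5 tested primitive endoderm markers 1 rose, Col4a1 at 0.61, and the sum of the 8 with values was 259.9 to 284 with 3MB-PP1 and 168 to 196 untreated. Of 6 tested neural markers 2 rose and 1 fell, with sums of 225 to 234 with 3MB-PP1 and 164 to 175 untreated, while 0 of 6 trophoblast and 0 of 3 fibroblast markers passed. The part of these markers in the changes of the 38 genes was not tested.

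**Figure D4:**
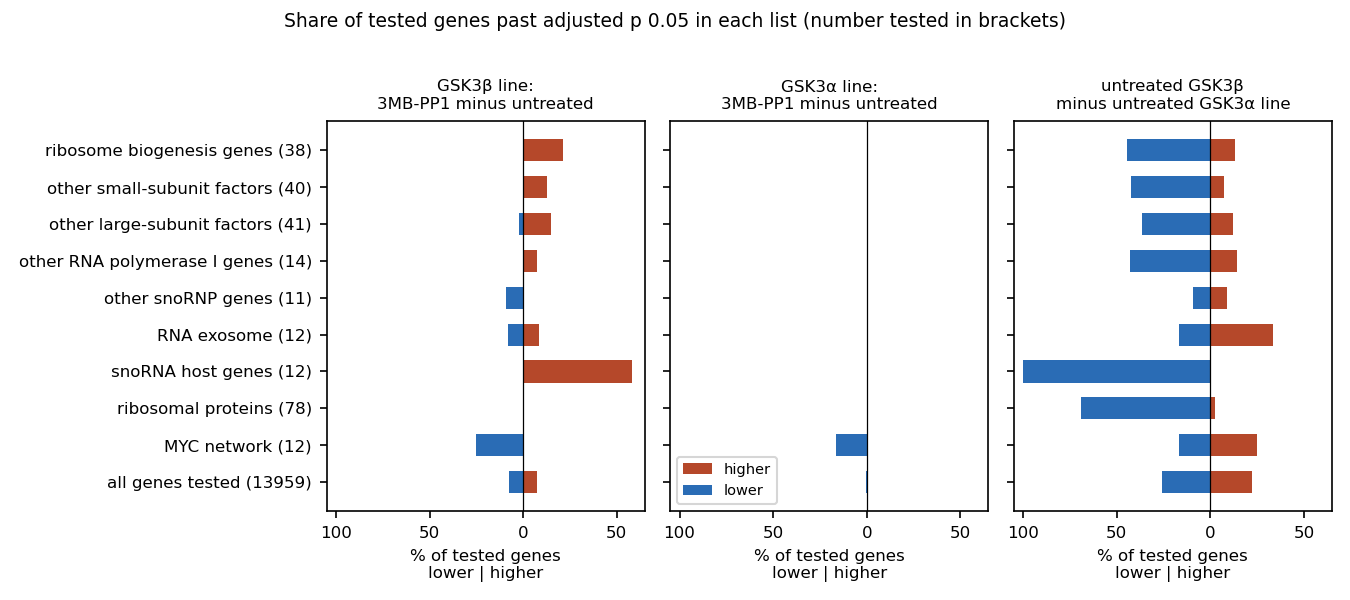
Percent of tested genes higher (bars to the right) and lower (bars to the left) at a limma adjusted p under 0.05 (x axis), for the 38 genes, each companion set and all tested genes (rows, with the number tested), in 3 comparisons. With 3MB-PP1 in the GSK3β line 8 of the 38 genes and 7 of the 12 snoRNA hosts rose, and 0 of the 78 ribosomal protein genes did.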

How the data were processed

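The values used are a deposited signal per gene: the authors aligned reads with TopHat2 and summarised them as estimated counts in Partek on mm10, per the submitters' processing notes, and the upper quartile is equal in all libraries, as the values show. Versions, annotation, strand setting and filter are not given in the sources used here. Between 63.5 and 67.6% of the values up to 20 reads came out whole to within 0.1, so no count test was run on recovered reads. No gene had values in some libraries and not in others: 17488 genes had values and 30833 had none. For the depth, the smallest value of each library was taken as 1 read and the total was counted in that unit; reads carry no stated molecular identifiers and are not independent molecules.

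Genes with a mean of at least 1 were tested on log2(value + 1) with limma-trend (limma 3.58.1, R 4.3.3). The fit had 4 group means and a spread shared by all groups on 4 residual degrees of freedom. The spread of each gene was then drawn towards its trend on the mean over all tested genes, which adds prior degrees of freedom not given here. Two-sided p-values were adjusted by Benjamini-Hochberg over all 13959 genes in each of 4 comparisons, with a threshold of 0.05. The added 1 understates the change of low genes. SE and 95% intervals are those of the fit, and the script was tested on simulated data. The changes added there were all larger than those of the 38 genes with 3MB-PP1. That run therefore does not show how often changes of this size are found. Lists were described by counts and medians. Values in every library are given for the 3 lowest and 3 highest genes of each comparison, Ddx21, the box C/D core, Ncl, Npm1, Dkc1, Polr1a and Polr1b, and for up to 3 genes past the threshold of each companion list changes are given. The 38 genes, the companion lists and the rule for named genes were chosen with earlier results of these data known, and the split of chromosome 19 was chosen after its values were seen. Positions and exon lengths come from GENCODE on GRCm38 and promoter windows from RefSeq on GRCm38.p6, read with pandas 2.3.3 and numpy 2.4.6. Alternatives were the pseudocount, the filter, 2 other scalings, a fit of 4 libraries, no trend, a replicate block and each library left out. No 2 replicates held identical values.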

Additional observations from a re-analysis of the deposited data

Results flagged for a closer look

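For Noc3l the test of the difference between the lines passed: the change with 3MB-PP1 was 0.12 on the log2 scale in the GSK3β line and -0.10 in the GSK3α line, a difference of 0.22 (limma adjusted p = 0.0088). Both libraries with 3MB-PP1 lay above both untreated ones in the GSK3β line and below them in the GSK3α line. For Rrp9 the same test passed with changes of 0.15 in the GSK3β line and -0.02 in the GSK3α line, a difference of 0.18 (limma adjusted p = 0.0435). Its groups overlapped in the GSK3α line. The call of the difference was lost in 10 of 16 alternative settings for Rrp9 and in 3 of 16 for Noc3l.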

How the results depend on the processing

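No direction of a called gene turned in any alternative run. Within a line and between the untreated lines, leaving out a library could not do so, since the groups of the called genes did not overlap. In the alternative runs 3 counts stayed within 1.5 times of those reported: genes lower with 3MB-PP1 in the GSK3β line, genes called with 3MB-PP1 in the GSK3α line, and genes lower in the untreated GSK3β line. The number of genes that rose with 3MB-PP1 in the GSK3β line, 8 as reported, was 5 with the 4 libraries of the line alone, 0 without the trend in limma (7 at an unadjusted p under 0.05) and 0 to 9 with 1 library left out. The number with a higher difference between the lines, 2 as reported, was 1 without a filter on low values, 6 when scaled by the median ratio, 1 when scaled to an equal sum, 0 without the trend (6 at an unadjusted p under 0.05) and 0 to 3 with 1 library left out. The number higher in the untreated GSK3β line, 5 as reported, was 3 with 4 libraries alone, 3 without the trend and 2 to 6 with 1 library left out, with 2 without untreated GSK3α replicate 1. The median between the untreated lines was -0.0037 when scaled to an equal sum. Replicate numbers did not pair the libraries, since correlations of the deviations of same-numbered libraries lay between -0.045 and 0.027; with a replicate block 7 genes rose in the GSK3β line and 1 had a higher difference, and the other counts were as reported. The difference between the lines could not be fitted with 4 libraries. Where leaving out a library left 1 in a group, that library was assumed to vary like the other groups. With 2 libraries per group, each of the 8 calls in the GSK3β line was lost in at least 2 alternatives, while the log2 changes with 1 library left out stayed between 0.08 and 0.19. The median of the 38 genes with 3MB-PP1 in the GSK3α line lay between -0.039 and -0.0098 with 1 library left out.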
